A study of Mus musculus with 12 samples.

Results

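The comparison set 6 mouse uteri with Trp53 ablation against 6 uteri without it, and took all 12 uteri of the series. Trp53 status was crossed with Cdh1 status in 4 groups of 3 uteri. Control uteri came from wild-type mice (Cdh1+, P53+), a second group from mice labelled as Cdh1 knock-out (Cdh1-, P53+), the third from mice with Trp53 knock-out (Cdh1+, P53-) and the fourth from mice with both (Cdh1-, P53-). The groups are called control, labelled Cdh1 cKO, Trp53 cKO and double cKO. All mice were female C57BL/6 animals aged 2 months, so the groups shared sex, strain label and age, and the labels name no agent given to any group. The sources used here do not give the recombinase that deleted either gene, the cells in which it acted or the stage of the estrous cycle. RNA of each whole uterus was hybridised to 1 Illumina bead array, which reports a fluorescence signal per probe. Values are the authors' log2 signals, and a difference of 1 is a doubling of signal.

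Trp53 encodes p53, a transcription factor that DNA damage and other stresses stabilise and that switches on genes of cell cycle arrest, apoptosis and DNA repair. Its level is held down by the ubiquitin ligase Mdm2, and the Arf product of Cdkn2a in turn inhibits Mdm2. Cdh1 encodes E-cadherin, the adhesion molecule of epithelial junctions. In the mouse, Trp53 lies on chromosome 11, and a targeted allele bred into a strain brings along the chromosome segment on either side of it until recombination removes it.

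Trp53 itself was not analysed here, so its own level cannot check the labels. Cdh1 stood at 9.71, 9.41 and 10.08 in control uteri and at 9.74, 9.58 and 9.98 in the uteri labelled Cdh1 cKO, so these groups overlapped, and every comparison below that rests on that label carries this limit. In the double cKO uteri Cdh1 stood at 9.67, 8.18 and 7.36. Uterine tissue markers were present: Krt8, Krt18, Pdgfra, Vim, Myh11, Acta2, Des and Hoxa10 were detected on all 12 arrays, Hoxa11 on 9 and the gland marker Foxa2 on 7. Between 44.3% and 47.9% of the 45281 probes were detected per array. Correlations over probes lay between 0.936 and 0.984 within groups and between 0.924 and 0.979 across groups. The number of arrays limits the precision, and p-values measure the spread between these samples only, since the labels do not say how the animals were related.

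Expression of 12194 genes was tested as the mean of 2 differences, Trp53 cKO minus control and double cKO minus labelled Cdh1 cKO, in a limma model fitted to all arrays. A gene was called at a Benjamini-Hochberg adjusted p below 0.05. The main effect of Trp53 ablation called 20 genes, or 0.164% of those tested. Of these, 17 were higher with ablation, or 0.139%, and 3 were lower, or 0.0246%. At an unadjusted p below 0.05 the count was 720, with 424 higher and 296 lower. Of the 20 called genes, 19 moved the same way in both Cdh1 backgrounds, beside 6313 of the 12194 tested genes, and the exception was Clec4n. The 20 were called on the mean of these same 2 differences. This selection favours equal signs, so the 2 shares cannot be set against each other. For 5 of the 19 (Mmp12, Mmp13, F7, F10 and Cd300lf) no control or Trp53 cKO array detected the probe, so neither a direction nor a difference is measured in the Cdh1-intact background. H2-M2, Cdkn2a and Lilrb4a differed by only 0.04, 0.13 and 0.15 in that background. The 3 falls were Trim11, the uncharacterised gene 4933427D14Rik and Mrpl55, all on chromosome 11. The rises included Clec4d, S100a8 and S100a9 of the neutrophil list, the metalloproteases Mmp12 and Mmp13 and the coagulation factors F7 and F10. All 17 fitted differences were larger in the background labelled as Cdh1-ablated. When the interaction was left out of the model, only Trim11 and 4933427D14Rik passed the test, which brought the count of 20 down to 2. Without control 2 the count was 4, with Trim11, 4933427D14Rik, Mmp12 and Il1rn still called, and without labelled Cdh1 cKO 3 it was 39. It was 5 to 8 without control 1, any Trp53 cKO array or double cKO 3.

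Trim11, a ubiquitin ligase of the tripartite motif family, was lower in every ablated uterus. Its signal was 6.93, 6.90 and 7.55 in control uteri and 7.94, 7.56 and 7.64 in uteri labelled Cdh1 cKO. It was 4.82, 4.24 and 4.59 in Trp53 cKO uteri and 4.38 in each of the 3 double cKO uteri. All 6 ablated uteri lay below all 6 others, and the probe was not detected on any ablated array. With ablation it was therefore at least 5.89-fold lower (limma, adjusted p = 8.09e-06), at least 4.76-fold against control and at least 7.28-fold between the double cKO and the uteri labelled Cdh1 cKO. Such a bound sets the undetected signal to no less than the dimmest detected probe of each array.

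4933427D14Rik was separated in the same way. Its signal was 7.53, 8.21 and 7.99 in control uteri, 8.31, 8.21 and 7.64 in uteri labelled Cdh1 cKO, 5.11, 4.71 and 4.84 in Trp53 cKO uteri and 4.81, 5.02 and 4.57 in double cKO uteri. The groups of 6 did not overlap, and the probe was detected on 2 of 3 Trp53 cKO arrays and on 1 of 3 double cKO arrays. The main effect was -3.14 ± 0.17 (SE, n = 6 against 6; limma adjusted p = 8.09e-06), with the probe undetected on 3 of the 6 ablated arrays. The difference was -3.02 in the Cdh1-intact background and -3.26 in the other, and the interaction was -0.23. Trim11 and 4933427D14Rik were also the only genes called in Trp53 cKO against control, which is 0.0164% of the genes tested, with 290 at an unadjusted p below 0.05.

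Mrpl55, a protein of the large subunit of the mitochondrial ribosome, fell by less. Its signal was 8.65, 8.67 and 8.85 in control uteri, 8.96, 8.69 and 8.76 in uteri labelled Cdh1 cKO, 8.29, 8.08 and 8.21 in Trp53 cKO uteri and 7.64, 7.84 and 7.94 in double cKO uteri. Again the 6 ablated uteri lay below the other 6. The fall came to -0.76 ± 0.10 (limma adjusted p = 0.0205), with -0.53 in the Cdh1-intact background and -0.999 in the other. The call was lost in 6 of the 12 fits that left out 1 array, namely control 1 or 2, any Trp53 cKO array or double cKO 3, with adjusted p up to 0.0790 and a difference between -0.80 and -0.72.

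**Figure D1:**
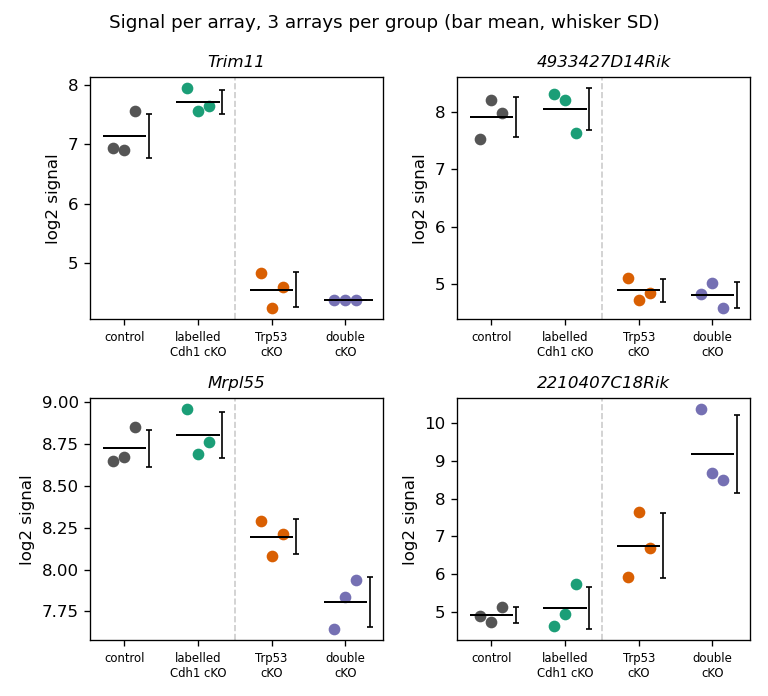
Log2 signal on each of the 12 arrays for Trim11, 4933427D14Rik, Mrpl55 and 2210407C18Rik, by group, with the group mean as a bar and its SD (n = 3) as a whisker. The 6 arrays right of the dashed line carry Trp53 ablation and do not overlap the 6 to its left in any panel.

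2210407C18Rik, an uncharacterised gene also on chromosome 11, was the called rise with the largest main effect. Its signal was 4.89, 4.72 and 5.13 in control uteri, 4.62, 4.95 and 5.72 in uteri labelled Cdh1 cKO, 5.92, 7.64 and 6.69 in Trp53 cKO uteri and 10.37, 8.69 and 8.49 in double cKO uteri. The lowest ablated uterus stood above the highest of the other 6. It rose by 2.96 ± 0.37 (limma adjusted p = 0.0140), with 1.83 in the Cdh1-intact background and 4.08 in the other. Control 2 and labelled Cdh1 cKO 1, at 4.72 and 4.62, lay below the dimmest detected probe of their arrays, at 4.87 and 4.89. The sizes therefore rest in part on undetected signals. The interaction of 2.25 did not pass the test (adjusted p = 0.808). The call was lost without control 1, without control 2 or without Trp53 cKO 3, with adjusted p up to 0.0690.

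The promoters of 3 called chromosome 11 genes, Mrpl55, 4933427D14Rik and 2210407C18Rik, are shown because p53 acts through sites in promoters. Each window runs from 250 bases before to 50 after the gene's start, 5′ to 3′ on the gene's strand, from RefSeq (GRCm38.p6), which held 4 of the 5 genes looked up (Trim11 was the fifth). Mrpl55 lies at chr11:59202236-59202535 on the plus strand. 4933427D14Rik lies at chr11:72207433-72207732 and 2210407C18Rik at chr11:58613443-58613742, both on the minus strand. The window of Ccng1, an established p53 target on the same chromosome, is given beside them, at chr11:40755237-40755536 on the minus strand. Capitals mark a p53 half-site, searched on both strands.
Mrpl55: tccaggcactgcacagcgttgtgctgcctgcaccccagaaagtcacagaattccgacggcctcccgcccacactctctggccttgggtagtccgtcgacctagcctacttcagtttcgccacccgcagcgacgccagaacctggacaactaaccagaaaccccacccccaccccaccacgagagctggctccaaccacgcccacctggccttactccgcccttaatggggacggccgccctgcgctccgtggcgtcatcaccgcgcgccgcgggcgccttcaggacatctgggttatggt
4933427D14Rik: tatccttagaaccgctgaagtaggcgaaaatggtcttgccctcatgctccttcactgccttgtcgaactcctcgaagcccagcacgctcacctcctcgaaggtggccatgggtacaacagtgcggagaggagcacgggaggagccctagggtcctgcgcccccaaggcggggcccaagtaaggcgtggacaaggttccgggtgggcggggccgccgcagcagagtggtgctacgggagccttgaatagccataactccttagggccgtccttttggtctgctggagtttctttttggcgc
2210407C18Rik: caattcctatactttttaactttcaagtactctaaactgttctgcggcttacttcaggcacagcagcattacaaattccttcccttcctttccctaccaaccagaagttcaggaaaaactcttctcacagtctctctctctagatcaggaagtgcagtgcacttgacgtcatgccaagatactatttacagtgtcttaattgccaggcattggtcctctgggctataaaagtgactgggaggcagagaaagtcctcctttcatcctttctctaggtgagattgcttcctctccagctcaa
Ccng1: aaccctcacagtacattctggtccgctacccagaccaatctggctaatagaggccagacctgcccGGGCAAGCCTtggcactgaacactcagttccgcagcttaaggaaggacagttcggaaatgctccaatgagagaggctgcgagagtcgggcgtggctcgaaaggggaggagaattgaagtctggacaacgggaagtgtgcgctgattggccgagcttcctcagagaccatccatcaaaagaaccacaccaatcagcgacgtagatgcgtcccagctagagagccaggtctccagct
A half-site was found once in the Ccng1 window and in none of the other 3, and 8.4% of all 32851 promoter windows held one. A match is a description of the letters and not a binding site, and its absence says only that these letters are not in this window.

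Chromosome 11 held 1038 of the 12194 tested genes, or 8.51%, and 6 of the 20 called genes. These were the 3 falls, 2210407C18Rik, Plek and Cd300lf. Cd300lf passed the detection filter through the 3 double cKO arrays alone, so its part in this count supports nothing. Further counts, chosen after values were seen, were of genes whose samples did not overlap. In 14 genes, or 0.115% of those tested, all 6 ablated uteri lay below all 6 others, and 8 of these were on chromosome 11. In 8 genes, or 0.0656%, all 6 lay above, and 2210407C18Rik was the one on chromosome 11. Without overlap in each Cdh1 background taken by itself, 44 genes (0.361%) were lower in both and 35 (0.287%) were higher in both. Chromosome 11 held 14 of the 44 and 8 of the 35. Of its tested genes 1.35% were lower in both backgrounds, against 0.269% on the other chromosomes. Higher in both were 8 of its 1038 genes, against 27 of 11156 on the other chromosomes.

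Along the chromosome the lower genes lay mostly around the place of Trp53. In the order of tested genes, Mrpl55 was 90 genes away from it, Trim11 93 and 2210407C18Rik 98, all on one side. 4933427D14Rik was 68 genes away on the other side. The neighbours of Trim11 and Mrpl55 included Zkscan17 at 86 genes, with a main effect of -0.59 ± 0.12 (adjusted p = 0.128), and 4933439C10Rik at 85 genes, with -0.65 ± 0.12 (adjusted p = 0.0992). Neither passed the limma test, although for both all 6 ablated uteri lay below the other 6. On the other side Nxn, which encodes the redox protein nucleoredoxin, stood 124 genes away at -1.08 ± 0.22 (adjusted p = 0.140) and was lower in both backgrounds. These names were chosen after their values were seen. Within 200 tested genes of Trp53, a window also chosen after values were seen, 12 of 402 genes were lower in both backgrounds and 3 higher. On the rest of the chromosome 2 of 636 were lower in both and 5 higher. Chromosomal neighbourhood and Trp53 status cannot be told apart in these groups.

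**Figure D2:**
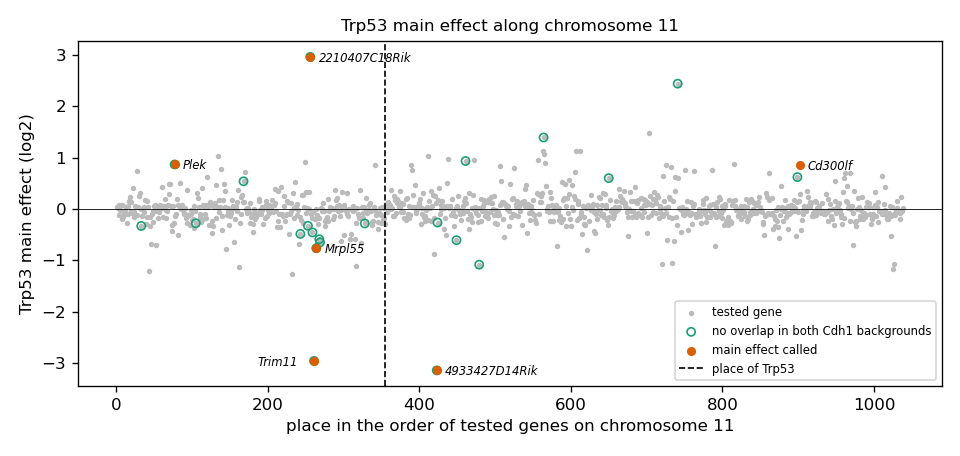
Trp53 main effect on the log2 scale for each of the 1038 tested genes of chromosome 11, in their order along it, with called genes filled, genes without overlap in both Cdh1 backgrounds ringed and the place of Trp53 dashed. Trim11 and 4933427D14Rik lie near -3 on either side of that place, 93 and 68 tested genes away.

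Testing every kept probe separately brought up more chromosome 11 falls, and these probes were likewise singled out after their values were seen. Of 23229 probes, 10 were called lower with ablation (0.043%) and 22 higher (0.0947%). Of the 10 lower probes 7 had a gene symbol and all 7 lay on chromosome 11, while of the 21 higher probes with a symbol 3 did. Besides the 3 genes above, they were second probes of Fxr2, Ndel1, Sparc and Galnt10, whose brighter probe did not follow.

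Fxr2, which encodes an RNA-binding relative of the fragile X protein and lies 2 tested genes from Trp53, had a probe at 7.12 to 7.52 on the 6 arrays without ablation and at 5.52 to 6.03 on the 6 with it. That probe differed by -1.53 ± 0.11 (limma adjusted p = 1.36e-04), and its brighter probe by -0.06 ± 0.14. Ndel1, a partner of the dynein motor 19 genes away, had a probe at 6.88 to 8.07 without ablation and at 4.48 to 5.05 with it. That probe differed by -2.73 ± 0.24 (adjusted p = 7.50e-04), against 0.11 ± 0.11 for the brighter one. It was detected on 2 of the 6 ablated arrays and on no Trp53 cKO array, so the size of its fall is not measured. The 2 probes of each gene thus gave unequal answers.

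Sparc, a secreted protein that binds collagen, showed the same split, at 7.34 to 9.57 without ablation and 4.94 to 6.71 with it. The difference was -2.93 ± 0.43 (limma adjusted p = 0.0297), while its brightest probe gave 0.06 ± 0.22 and the other dimmer probe -0.05 ± 0.32. A probe of Galnt10, a glycosyltransferase of mucin-type chains, differed by -0.94 ± 0.14 (adjusted p = 0.0297), against -0.21 ± 0.17 for the brightest and 0.07 ± 0.14 for the dimmest. The remaining 3 lower probes had no gene symbol and gave -1.90, -2.07 and -2.26, and the one at -2.07 was detected on 3 of the 6 ablated arrays. All 7 of these extra probes differed downwards in both backgrounds. The Fxr2 probe gave -1.31 and -1.74, the Ndel1 probe -2.95 and -2.51, and the Sparc probe -2.50 and -3.36. For Ndel1 the -2.95 rests on undetected Trp53 cKO signals. What sets the probes of 1 gene apart was not tested. Trim11, 4933427D14Rik, Mrpl55 and 2210407C18Rik had 1 kept probe each, so no second probe could check them.

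Taken in the background labelled as Cdh1-ablated, double cKO against labelled Cdh1 cKO called 60 genes, 56 higher and 4 lower, or 0.492% of those tested, and 19 of the 20 genes of the main effect were among them. The interaction, which tests whether the Trp53 difference itself differed between backgrounds, called 12 genes, or 0.0984%, all with an interaction above 0. One of these, the inflammatory caspase gene Casp4, differed by -1.20 in the Cdh1-intact background and by 1.13 in the other, and is named after its values were seen. Of the 20 genes of the main effect 9 were among these 12, and 9 of the 20 differed by under 0.2 on the log2 scale between Trp53 cKO and control. These 9 include the 5 genes that no array of those groups detected. The macrophage list holds Clec4n and the neutrophil list holds Clec4d, S100a8 and S100a9, so neither list is independent of the called rises. The summed signal of 29 macrophage genes was 14409 to 20106 in control and 18269 to 27042 in labelled Cdh1 cKO uteri. It was 16166 to 22996 in Trp53 cKO and 46290 to 48253 in double cKO uteri. The 20 neutrophil genes summed to 6212 to 32545, 16372 to 63844, 18383 to 35552 and 50070 to 71923 in the same order. For them labelled Cdh1 cKO and double cKO overlapped. The part of such cells in the rises was not tested, and in whole tissue more cells of a type and more RNA per cell cannot be told apart.

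**Figure D3:**
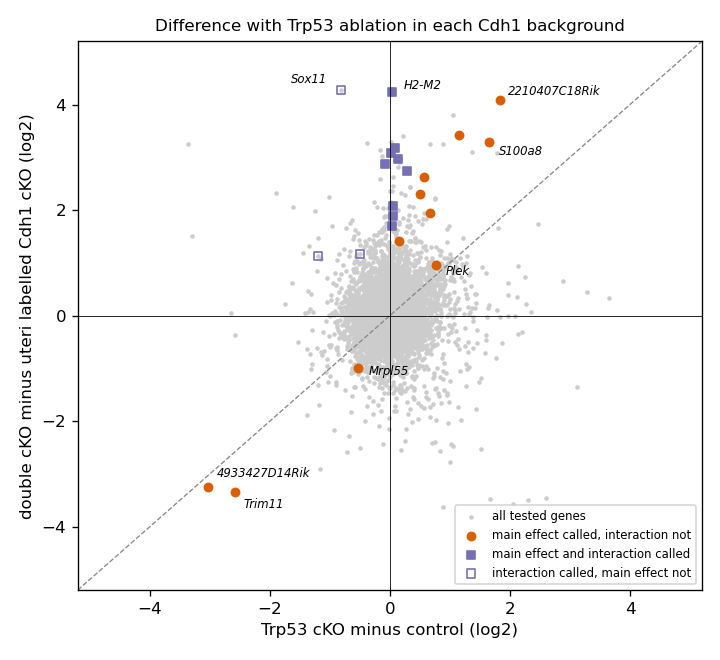
Log2 difference with Trp53 ablation for each tested gene, Trp53 cKO minus control on the horizontal axis and double cKO minus labelled Cdh1 cKO on the vertical axis, with equality dashed. Trim11 and 4933427D14Rik lie near the dashed line, and the 9 genes called for both main effect and interaction stand between -0.08 and 0.28 on the horizontal axis, where undetected signals are plotted as given.

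Among secreted proteases, Mmp12, the macrophage elastase, was near the detection limit outside the double cKO. Its signal was 4.45, 4.54 and 4.43 in control, 4.53, 5.24 and 5.48 in labelled Cdh1 cKO, 4.43, 4.42 and 4.61 in Trp53 cKO and 8.52, 7.96 and 8.02 in double cKO uteri. The double cKO arrays lay above the other 9. Averaged over backgrounds, the difference was 1.55 ± 0.17 (limma adjusted p = 0.00773), with 3.08 in the background labelled as Cdh1-ablated, and the interaction was 3.06 (adjusted p = 0.0247). Mmp13, collagenase 3, had a main effect of 1.63 ± 0.23 (adjusted p = 0.0219), with 3.17 in the same background, but its dimmer probe gave -0.06. Mmp13 lost its call in 6 of the 12 fits that left out 1 array (control 1 or 2, any Trp53 cKO array or double cKO 3), with adjusted p up to 0.0902.

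The antagonist of interleukin 1, Il1rn, stood at 4.68, 4.85 and 4.88 in control, 6.53, 6.24 and 6.69 in labelled Cdh1 cKO, 5.31, 4.65 and 5.28 in Trp53 cKO and 9.31, 8.77 and 9.61 in double cKO uteri. It was thus higher wherever the Cdh1 label stood and highest in the double cKO. Averaged over backgrounds, Il1rn differed by 1.51 ± 0.17 (limma adjusted p = 0.0101), with 2.74 in the background labelled as Cdh1-ablated. No control array detected it. Trp53 cKO 2, at 4.65, was undetected too and lay below all 3 control arrays, so no fold of Trp53 cKO over control is given. A second probe gave 1.45, made of -0.03 in the Cdh1-intact background and 2.94 in the other. Mmp12 and Il1rn stayed called in each of the 12 fits that left out 1 array.

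Cdkn2a, which encodes the cell cycle inhibitor Ink4a and the Mdm2 inhibitor Arf, stood at 5.15, 4.64 and 4.89 in control, 4.71, 5.36 and 5.46 in labelled Cdh1 cKO, 4.97, 5.04 and 5.05 in Trp53 cKO and 7.83, 7.90 and 8.70 in double cKO uteri. Trp53 cKO and control overlapped, and the double cKO lay above the rest. Its main effect came to 1.55 ± 0.19 (limma adjusted p = 0.0121), made of 0.13 and 2.97, with an interaction of 2.84 (adjusted p = 0.0405). Its 2 other probes gave main effects of 1.91 and 0.82. In the Cdh1-intact background they gave 0.41 and -0.16, so the probes differed in sign there. The call of Cdkn2a was lost without control 2 (adjusted p = 0.0636) and without Trp53 cKO 3.

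Receptors and antigens of immune cells made up a further group. H2-M2, a non-classical MHC class I molecule, had a main effect of 2.14 ± 0.29 (limma adjusted p = 0.0205), made of 0.04 and 4.24. Clec4d, a C-type lectin of myeloid cells, rose by 1.41 ± 0.17 (adjusted p = 0.0121), made of 0.51 and 2.31. Sirpb1a, a signal-regulatory receptor of myeloid cells, rose by 1.30 ± 0.19 (adjusted p = 0.0259), made of 0.67 and 1.94. Its samples did not overlap within either background. Cd300lf, a receptor of the CD300 family, was undetected on all 9 arrays outside the double cKO and was at least 2.56-fold higher when double cKO is set against labelled Cdh1 cKO. It passed the detection filter through the 3 double cKO arrays alone, so its call supports nothing by itself. Lilrb4a, an inhibitory receptor of leukocytes, had a main effect of 0.78 ± 0.13 (adjusted p = 0.0469), made of 0.15 and 1.42. Clec4n, which encodes dectin-2, differed by -0.08 in the Cdh1-intact background and by 2.87 in the other. Of the 12 fits that left out 1 array, 10 called Clec4d, 6 called H2-M2, 5 called Sirpb1a, 2 each called Cd300lf and Clec4n and 1 called Lilrb4a, with adjusted p up to 0.145. Control 2 and double cKO 3 were among the arrays whose removal ended each of these calls.

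The coagulation factors VII and X, F7 and F10, had main effects of 1.06 ± 0.15 and 0.97 ± 0.14 (limma adjusted p = 0.0215 for both). In the background labelled as Cdh1-ablated they differed by 2.07 and 1.89, with 1 of 3 labelled Cdh1 cKO arrays detecting each. Col8a1, a short-chain collagen, had a main effect of 1.59 ± 0.24 (adjusted p = 0.0312), made of 0.56 and 2.62, and a second probe gave 1.13. With 1 array left out, F7 was called in 4 of 12 fits, F10 in 5 and Col8a1 in 2, and all 3 were lost without control 1, control 2, any Trp53 cKO array or double cKO 3.

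Plek, S100a8 and S100a9 differed in size between backgrounds by amounts that did not pass the interaction test. Plek, the protein kinase C substrate pleckstrin of blood cells, lay at 4.55, 4.51 and 4.34 in control, 5.11, 5.29 and 4.93 in labelled Cdh1 cKO, 5.11, 5.18 and 5.41 in Trp53 cKO and 6.31, 5.71 and 6.20 in double cKO uteri. Each ablated group lay above its partner without overlap. Plek rose by 0.87 ± 0.13 (limma adjusted p = 0.0312), with 0.96 in the background labelled as Cdh1-ablated. No control array detected it, and Trp53 cKO was at least 1.29-fold above control. S100a8, a subunit of the neutrophil protein calprotectin, lay at 6.19, 5.72 and 6.96, then 7.74, 9.04 and 9.31, then 9.06, 7.52 and 7.23, and 12.24, 11.49 and 12.25 in the same order of groups. Its main effect was 2.47 ± 0.38 (adjusted p = 0.0355), made of 1.64 and 3.30. S100a9, its partner subunit, rose by 2.29 ± 0.36 (adjusted p = 0.0391), made of 1.16 and 3.43. Leaving out 1 array ended the call of Plek in 10 of 12 fits (all but labelled Cdh1 cKO 3 and double cKO 2), of S100a8 in 9 (all but control 3, labelled Cdh1 cKO 3 and double cKO 2) and of S100a9 in 10 (all but control 3 and labelled Cdh1 cKO 3), with adjusted p up to 0.142.

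**Figure D4:**
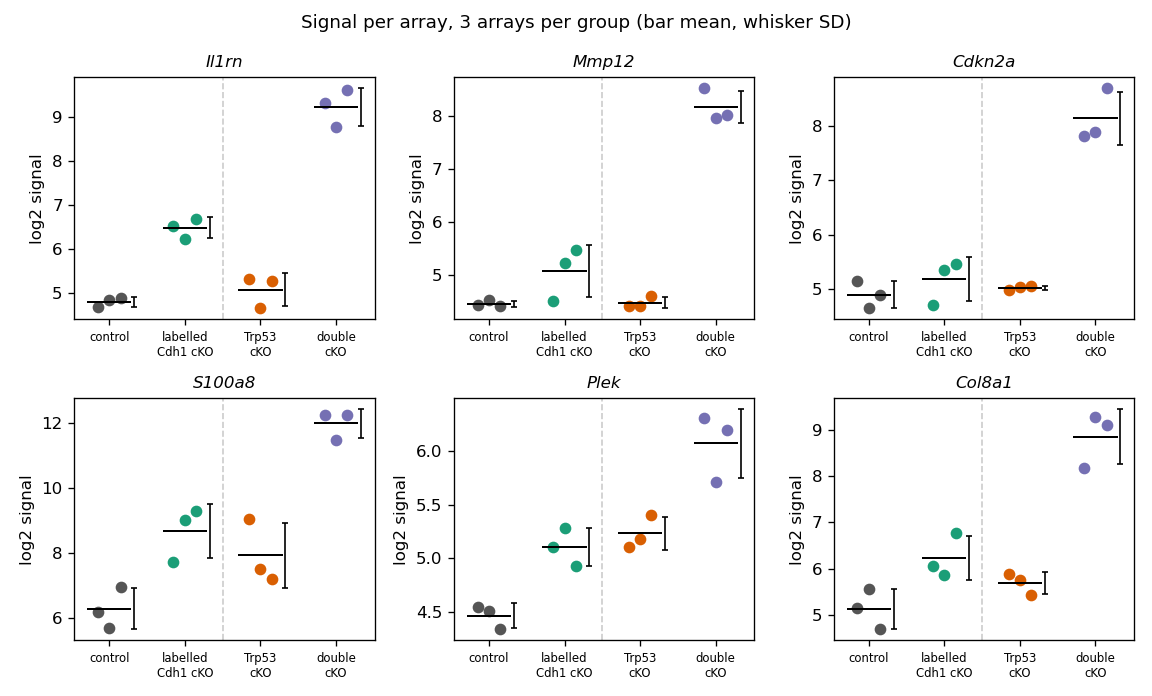
Log2 signal on each of the 12 arrays for Il1rn, Mmp12, Cdkn2a, S100a8, Plek and Col8a1, by group, with the group mean as a bar and its SD (n = 3) as a whisker. Double cKO arrays are the highest in every panel, and Trp53 cKO arrays overlap control arrays for Mmp12, Cdkn2a, Il1rn and Col8a1.

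Of 41 tested target genes of p53, none passed the limma test for the main effect, 1 was higher and 4 were lower at an unadjusted p below 0.05. Over all 12194 tested genes, 424 were higher and 296 lower at that threshold. The median main effect of the targets was -0.07, with 15 of 41 above 0, beside a median of -0.01 and 5767 of 12194 above 0 over all tested genes. Ccng1, the target with the smallest p and a cyclin-like regulator of Mdm2, stood at 10.49, 10.32 and 10.15 in control, 11.07, 10.50 and 11.07 in labelled Cdh1 cKO, 9.52, 10.17 and 9.74 in Trp53 cKO and 10.06, 9.65 and 9.84 in double cKO uteri. Only 1 ablated uterus, at 10.17, stood above the lowest of the other 6, at 10.15. Ccng1 gave -0.77 ± 0.16 (limma adjusted p = 0.132), made of -0.51 and -1.03, and this gene too lies on chromosome 11, 209 tested genes from Trp53.

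The next targets by p were Cd80, a costimulatory molecule, at 0.38 ± 0.12, the epoxide hydrolase Ephx1 at -0.63 ± 0.23 and the cell cycle arrest gene Rprm at -0.69 ± 0.26. The limma adjusted p was 0.639 for Cd80 and 0.737 for Ephx1 and Rprm. A dimmer probe of Cd80 gave -0.12. The most abundant targets, Rps27l and Ei24, gave -5.36e-05 ± 0.11 and -0.03 ± 0.09. Of 21 tested family members and regulators of p53, Cdkn2a alone was called. Mdm2, both a target and the main negative regulator, gave -0.23 ± 0.11 (adjusted p = 0.869), and the deubiquitinase Usp7 gave -0.13 ± 0.10. Among 26 apoptosis genes and 24 DNA repair genes limma called none, none reached an unadjusted p below 0.05, and their medians were -0.0036 and 0.07. Over all tested genes, 720 of 12194 reached that p.

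No proliferation gene passed the test. Of 32 tested, 31 had a main effect above 0, beside 5767 of all 12194, and the median was 0.66, which became 1.02 without double cKO 1 and 0.43 without double cKO 2. At an unadjusted p below 0.05, limma gave 3, all higher, beside 424 higher among all 12194 tested genes. Per array, the median centred level of the list lay between -0.41 and 0.82 in control, -0.94 and 0.15 in labelled Cdh1 cKO, 0.56 and 0.81 in Trp53 cKO and -1.34 and 0.82 in double cKO uteri. The Trp53 cKO arrays were alike, while each other group held arrays far apart. Cenpa, the centromeric histone, had the smallest p of the list at 0.79 ± 0.32 (adjusted p = 0.764). The mitotic kinase Cdk1 gave 0.86 ± 0.39 (adjusted p = 0.847).

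Interferon response genes were also mostly above 0, in 32 of 33, with a median of 0.56, which was 0.49 in the Cdh1-intact background and 0.48 in the other. Without double cKO 1 the median was 0.29. None passed the limma test and 11 were higher at an unadjusted p below 0.05, beside 424 higher among all 12194 tested genes. Oas1a, a sensor of double-stranded RNA, gave 0.66 ± 0.15 (adjusted p = 0.246), and the ubiquitin-like Isg15 gave 1.53 ± 0.40 (adjusted p = 0.367), made of 2.13 and 0.94. Control arrays lay between -0.57 and -0.34 for the list's centred median, and Trp53 cKO arrays between -0.18 and 0.49, with no overlap. Labelled Cdh1 cKO arrays, from -0.60 to 0.44, overlapped double cKO arrays, from -0.01 to 1.27.

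**Figure D5:**
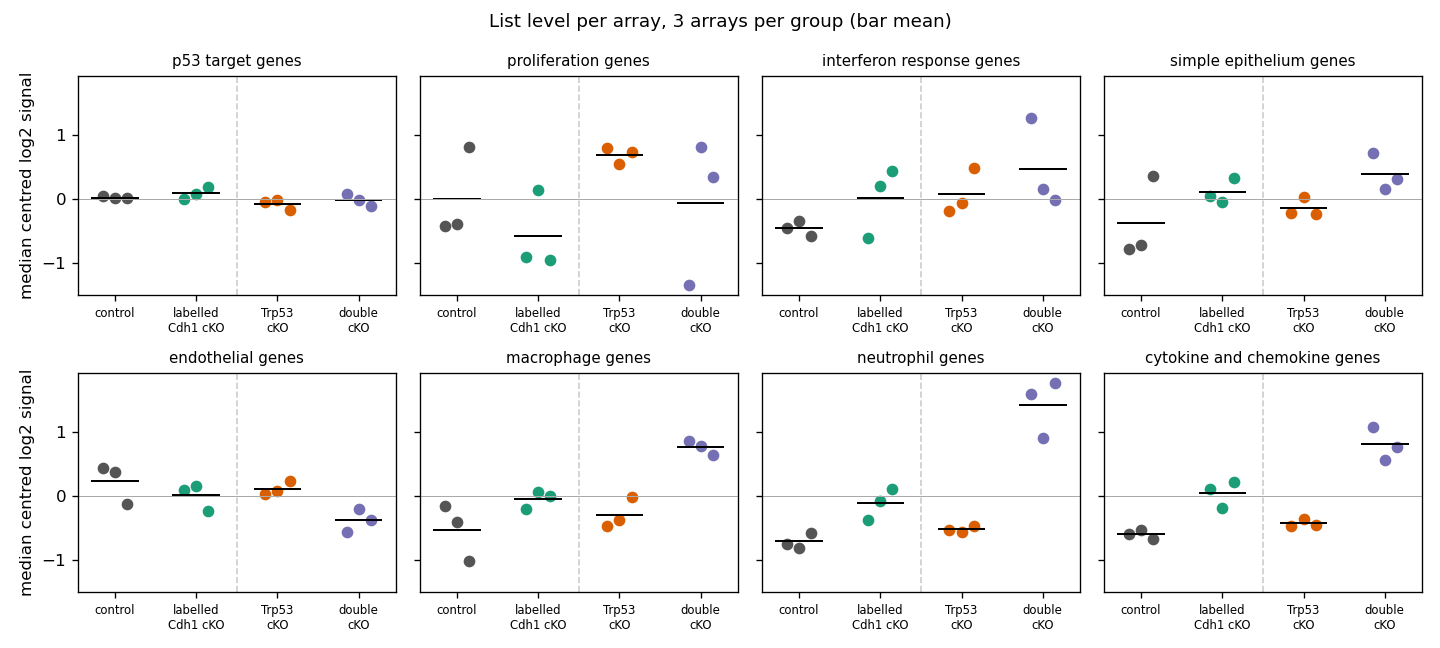
Median centred log2 signal of 8 gene lists on each of the 12 arrays, by group, with the mean of the 3 arrays as a bar. Macrophage, neutrophil and cytokine lists are highest on the double cKO arrays, p53 target genes stay within 0.20 of 0, and proliferation genes scatter most within the double cKO.

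Inflammatory lists differed mainly in the background labelled as Cdh1-ablated. Over all tested genes 0.164% were called and 5767 of 12194 were above 0. Of 29 macrophage genes 28 were above 0, with a median of 0.51 that was 0.13 in the Cdh1-intact background and 0.72 in the other, and Clec4n was the one called. Fcgr2b, an inhibitory Fc receptor, gave 0.82 ± 0.17 (limma adjusted p = 0.128), and the lysozyme gene Lyz2 gave 1.16 ± 0.30 (adjusted p = 0.351). Macrophage genes were detected on the arrays in numbers of 23 to 28 of 29. Of 20 neutrophil genes 18 were above 0 and 3 were called, Clec4d, S100a8 and S100a9, with a median of 0.88 that was 0.27 and 1.41 in the 2 backgrounds. Between 11 and 14 neutrophil genes were detected in control, 15 to 17 in labelled Cdh1 cKO, 13 in Trp53 cKO and all 20 in double cKO uteri. A gene could pass the detection filter through the 3 double cKO arrays alone, so full detection there can follow from the filter.

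Among 32 cytokine and chemokine genes 26 were above 0, the median was 0.45 and Il1rn was called. The chemokine Ccl17 gave 1.48 ± 0.25 (limma adjusted p = 0.0612) and was undetected on all control and Trp53 cKO arrays, tumour necrosis factor (Tnf) 0.76 ± 0.13 (adjusted p = 0.0743) and Il1b 1.97 ± 0.38 (adjusted p = 0.106), made of 0.67 and 3.26. Of 15 lymphocyte genes 1 was above 0, with a median of -0.11 (-0.05 without Trp53 cKO 1), none called by limma and 1 lower at an unadjusted p below 0.05.

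In the lists of tissue compartments and hormone responses limma called no gene. Of 29 simple epithelium genes 25 were above 0 with a median of 0.23 (0.43 without control 3, 0.35 without labelled Cdh1 cKO 3), and the junction gene Cldn4 gave 0.63 ± 0.19 (limma adjusted p = 0.535). Of 24 endothelial genes 2 were above 0 with a median of -0.21 (-0.14 without double cKO 1), and the lymphatic marker Lyve1 gave -0.52 ± 0.21 (adjusted p = 0.764). Estrogen response genes had a median of 0.22 and progesterone response genes of -0.12, with 18 of 31 and 3 of 22 above 0. With 1 array left out these medians ranged from 0.05 (without Trp53 cKO 2) to 0.35 (without labelled Cdh1 cKO 3), and from -0.22 (without control 3) to 0.02 (without Trp53 cKO 2), where the sign turned. Of 17 squamous epithelium genes none was called and 5 were above 0, with a median of -0.21. That median was 0.57 in the Cdh1-intact background and -0.73 in the other, and 0.24 over both without labelled Cdh1 cKO 3, where the sign turned. Unlike most of the list, Krt17 gave 2.44 ± 0.48 (limma adjusted p = 0.119), made of 1.79 and 3.09. It is a keratin of wounded epithelium that also lies on chromosome 11. At an unadjusted p below 0.05, 3 simple epithelium genes were higher and 1 was lower, and 2 endothelial genes were lower. At the same threshold 2 estrogen response genes were higher and 2 lower, 2 squamous genes higher and 1 lower, and no progesterone response gene passed. Among all 12194 tested genes 424 were higher and 296 lower. The medians of stroma, smooth muscle, gland, mast cell, immediate early, ciliated cell, mesothelial, ovary, adipocyte and red blood cell genes lay between -0.32 and 0.22. None of these genes was called by limma, while 6 were higher and 3 lower at an unadjusted p below 0.05.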

How the data were processed

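Per the file headers and labels, 12 mouse uteri, 3 per group, were each measured on 1 Illumina array. Deposited were the intensity before normalization with a detection p-value, per probe and array, and a matrix of log2 values made by the authors. The 24 columns of bead numbers and bead errors were not used here. The submitters' processing notes name limma 3.10.2. The matrix was used as deposited: it differed by at most 0.0234 (log2) from neqc with an offset of 16 applied to the intensities, and every column median was 4.72, so neither ratios nor gene-wise centring are in it.

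Of 45281 probes, 23229 were kept because 3 or more of the 12 arrays detected them (detection p under 0.05). The platform annotation gave 1 symbol for 34885 probes, several for 18 and none for 10378. Symbols and gene order came from RefSeq genes (GRCm38.p6), which held 99.8% of the probes with 1 symbol. The sources used here do not name the build behind the files. The probe with the highest mean stood for each gene, which gave 12194 genes, and 4975 of them had more than 1 kept probe.

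Limma 3.58.1 in R 4.3.3 fitted 1 coefficient per group with eBayes, 8 residual and 2.84 prior degrees of freedom. P-values were 2-sided and adjusted by Benjamini-Hochberg over the 12194 genes. All adjusted p-values come from limma. Errors beside differences are standard errors. An undetected probe has only a bound, set at the lowest signal among detected probes. A list's centred level is the median over its genes of the log2 signal minus the gene's mean over 12 arrays. The fit was tested on simulated data. Figures were drawn with matplotlib.

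The compared groups, the 25 gene lists (705 entries, 653 with a probe, 538 tested), the tests and the members were chosen with earlier results of these data known. Named are Trim11, Mrpl55, the 15 largest rises and falls among called genes that moved the same way, the 5 smallest p of the interaction, and up to 4 members with the smallest p and 2 with the highest mean of a list. Groups came from the sample titles. Same-numbered uteri did not deviate together across all groups: the correlations of their deviations were 0.22, 0.33 and 0.30 for control with labelled Cdh1 cKO, but 0.04, -0.39 and -0.32 for control with Trp53 cKO, and -0.16, -0.03 and -0.05 for labelled Cdh1 cKO with double cKO, and down to -0.65 among the other pairs, so the number was not taken as a pairing. Alternatives were normalization, detection filter, probe choice, model terms, array weights and leaving out arrays. The chip that held each array is unknown. Trp53 was not analysed here.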

Additional observations from a re-analysis of the deposited data

Results flagged for a closer look

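For 12 genes the Trp53 difference itself differed between the 2 Cdh1 backgrounds by the interaction test of limma, each with an interaction above 0. Sox11, a transcription factor of progenitor cells, had an interaction of 5.09 ± 0.60 (adjusted p = 0.0247), since it differed by -0.81 between Trp53 cKO and control and by 4.28 between double cKO and labelled Cdh1 cKO uteri. Its main effect was not called (adjusted p = 0.0623). Mmp12 had an interaction of 3.06 ± 0.34 (adjusted p = 0.0247).

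H2-M2 followed with 4.20, Mmp13 with 3.08, Clec4n with 2.94, Cdkn2a with 2.84 and Il1rn with 2.46. F7 stood at 2.02, F10 at 1.84 and Cd300lf at 1.65. Mapk11, a p38 kinase, had 1.66, from differences of -0.49 and 1.17, and Casp4 had 2.33, from -1.20 and 1.13. The adjusted p of these was 0.0405, except for Cd300lf, which passed the detection filter through the 3 double cKO arrays alone. Mmp12, Mmp13, F7, F10 and Cd300lf were undetected on all control and Trp53 cKO arrays, so their interaction rests on a difference that is not measured there. All these calls were lost in fits such as the one with no filter on detection, which called no interaction (898 genes at an unadjusted p below 0.05).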

How the results depend on the processing

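Trim11 and 4933427D14Rik were called for the main effect under all 24 alternatives, with differences from -3.02 to -1.35 and from -3.24 to -1.57. Mmp12 and Il1rn lost the call under the model without interaction and under Trp53 status alone only, among the alternatives that tested them (23 for Mmp12, 24 for Il1rn). No named gene that was called changed direction. The main count of 20 became 11 with quantile normalization without background correction, 32 with every probe tested, 7 with the replicate number as a block, 2 without the interaction term, 2 with Trp53 status alone and 165 with array weights, whose fit did not converge. Leaving out 1 array gave 4 (without control 2) to 39 (without Cdh1 cKO 3). Leaving out control 3, Cdh1 cKO 3 and double cKO 1 together, chosen after seeing the data, gave 68. The count of 2 for Trp53 cKO against control became 5 with every probe, 6 with array weights, 15 without those 3 arrays, and 2 to 9 with 1 array left out. The count of 60 in the other background became 35 at detection on at least 6 arrays, 92 with every probe, 210 with array weights, and 27 to 80 with 1 array left out. The 12 interaction calls became 4 with quantile normalization, 0 with no filter (898 genes at an unadjusted p below 0.05), 1 at detection on at least 6 arrays, 3 with every probe, 2 with probe means, 0 with the block (501), 58 with array weights, 36 without the 3 arrays, and 0 to 17 with 1 array left out. List medians moved by more than 1 SD of the list's centred level between arrays of a group in 5 cases: 0.48 for neutrophil and 0.28 for cytokine genes with quantile normalization, -0.16 for p53 targets with array weights, 0.0706 for p53 regulators without Cdh1 cKO 2 (-0.0360 to 0.0706 over arrays left out) and -0.54 for gland genes without the 3 arrays. The causes were not tested. The chip as a block was not run. Calls near the detection limit rest on dim signals, and 3 arrays per group limit the precision.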
